A study of Mus musculus with 12 samples.

Results

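The genes described here run or restrain the cell division cycle, and 48 of them were taken by name: cyclins and cyclin-dependent kinases (CDKs), proteins of mitosis, proteins of DNA replication, and inhibitors and other regulators. Every probe annotated with 1 of these symbols was used. The arrays carried 46 of the 48 genes, on 101 of 45281 probe IDs. Where several IDs had the same values throughout, they were joined, and 49 features of 30854 then stood for these genes. Ccnb1 and Mki67 were not analysed here, since no probe ID carried their symbol alone. Cenpa, Kif11 and Cdkn2c had 2 features each, and a gene is given by its brightest feature unless the text says otherwise.

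The hearts came from MHC-CELFΔ mice, in which the α-myosin heavy chain promoter drives a dominant negative CELF protein in the nuclei of heart muscle cells after birth, so that splicing by the CELF family is inhibited there. Hybridizations were made with 3 hearts of the mild line (MHC-CELFΔ-574, with less of the transgenic protein), 3 of the severe line (MHC-CELFΔ-10, with more) and 3 wild type littermates of each line. All mice were FVB/N females of 3 weeks, the age of weaning, and transgenic mice were hemizygous. Each group of transgenic hearts stands for 1 transgenic line, and total RNA was taken from the whole heart, so that cells without the transgene are included. Hearts of the lines are called mild and severe hearts from here on.

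Heart muscle cells of the mouse divide before birth and briefly afterwards, then copy their DNA once more without dividing and mostly leave the cycle, while fibroblasts, endothelium and blood cells in the same organ can still divide. D cyclins with CDK4 and CDK6 start the cycle by phosphorylating the retinoblastoma protein, which frees E2F factors to switch on replication genes. Mitotic genes are switched on later, and p21 and its relatives hold the CDKs back. In RNA from a whole organ, fewer dividing cells and less transcript in each dividing cell cannot be told apart.

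Mitotic and replication genes are known for different promoter elements, and their sequences are shown as background to these groups. No element was set against the array values. RefSeq promoter windows, from 250 bases before to 50 after the transcription start on GRCm38.p6, were given for 37 of the 46 genes in 42 windows. The letters TTTGAA, the cell cycle genes homology region (CHR) that the DREAM complex binds, were searched on both strands. They stood in 13 of 15 mitosis windows (86.7%), in 2 of 9 cyclin and CDK windows (22.2%), in 1 of 11 replication windows (9.09%) and in 0 of 7 windows of inhibitors and regulators, against 17.9% of all 32851 windows. Below, capitals mark the match, and TTCAAA is the same element read on the opposite strand. Each run is 30 bases of the strand that the gene is read from.
Cenpa, chr5:30666890-30666919, plus strand: ggcgggtgatttTTTGAActgctggcgacc
Plk1, chr7:122159453-122159482, plus strand: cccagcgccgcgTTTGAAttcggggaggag
Cdc20, chr4:118437344-118437373, minus strand: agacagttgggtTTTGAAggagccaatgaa
Prc1, chr7:80294434-80294463, plus strand: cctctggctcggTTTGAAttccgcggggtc
Kif22, chr7:127042420-127042449, minus strand: gggccccggtaaTTCAAAagagagaagcgg
Kif11, chr19:37376351-37376380, plus strand: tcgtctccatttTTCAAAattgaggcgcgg

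The E2F element was searched as TTTGGCGC, TTTCCCGC or TTTCGCGC on both strands, and matches on opposite strands may overlap. It stood in 4 of 11 replication windows (36.4%), those of Mcm3, Mcm5, Mcm6 and Mcm7, and in 2 of 9 cyclin and CDK windows (22.2%), against 1.84% of all windows. No mitosis window held it. The letters CCAAT, the NF-Y box, stood in 14 of 15 mitosis windows (93.3%) and in 9 of 11 replication windows (81.8%), against 37.4% of all. Matches are letters in a window and were not tested as binding sites. The runs that follow show 1 E2F match for each of the 4 replication genes, with the match in capitals.
Mcm5, chr8:75109345-75109374, plus strand: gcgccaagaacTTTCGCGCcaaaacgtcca
Mcm6, chr1:128359734-128359763, minus strand: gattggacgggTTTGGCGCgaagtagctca
Mcm3, chr1:20820263-20820292, minus strand: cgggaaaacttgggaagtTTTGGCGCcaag
Mcm7, chr5:138171849-138171878, minus strand: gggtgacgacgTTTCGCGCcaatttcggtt

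Raw intensities had medians per array of 103 to 106 in mild hearts, 116 to 119 in severe hearts, 106 to 112 in the littermates of the mild line and 103 to 109 in those of the severe line. After normalization every array had a median log2 signal of 6.28. Olfactory receptor genes, which tissues outside the nose use little, served as the background, and the 95th percentile of their 1089 features was 6.32. Of the 49 cell cycle features, 38 lay above it. The brightest feature was not above it for 10 genes, Ccna2, Ccnb2, Cdk6, Bub1, Cdc25c, Kif20a, Tpx2, Ube2c, Pcna and Cdkn1b, so their values carry little information on a change. Of the cardiomyocyte markers, all 5 measured were above background, with Myh6 at a mean of 14.13 and Myl2 at 14.99, and 2 of them were called: Ryr2, the calcium release channel, at -1.11 and -0.49 in mild and severe hearts, and Actn2 at 0.27 in mild hearts (log2 fold changes). Which array lay on which chip is not given in the sources used here, so changes were also taken against each line's own littermates. For 23 of the 36 genes above background this moved the log2 fold change by less than 0.1, and the largest move was 0.19, for Prc1 in each line.

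Most cell cycle genes of MHC-CELFΔ hearts had array signals close to their wild type levels. In mild hearts, 2 of 49 features passed an adjusted p of 0.05 against the 6 wild type hearts, where 3.55% of all features did (limma, Benjamini-Hochberg adjusted). The cyclin Ccng1 fell, where 1.93% of all features were called lower, and the centromeric histone Cenpa rose, where 1.62% were called higher. In severe hearts, 2 of 49 features passed, where 3.3% of all features did, and both rose: the cyclin Ccnd3 and the CDK inhibitor Cdkn1a. Of all features, 1.75% were called higher and 1.56% lower there. Under a limit of 2-fold, with an adjusted p under 0.05 or an unadjusted p under 0.001, 0 members passed in mild hearts, where 0.269% of all features did, and 0 in severe hearts, where 0.136% did. The share called among the members at the adjusted threshold, 4.08% in each line, was near that of the whole array. At an unadjusted p under 0.05 there were 9 of 49 members in mild hearts, where 12.3% of all features were, and 10 of 49 in severe hearts, where 13.5% were.

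**Figure D1:**
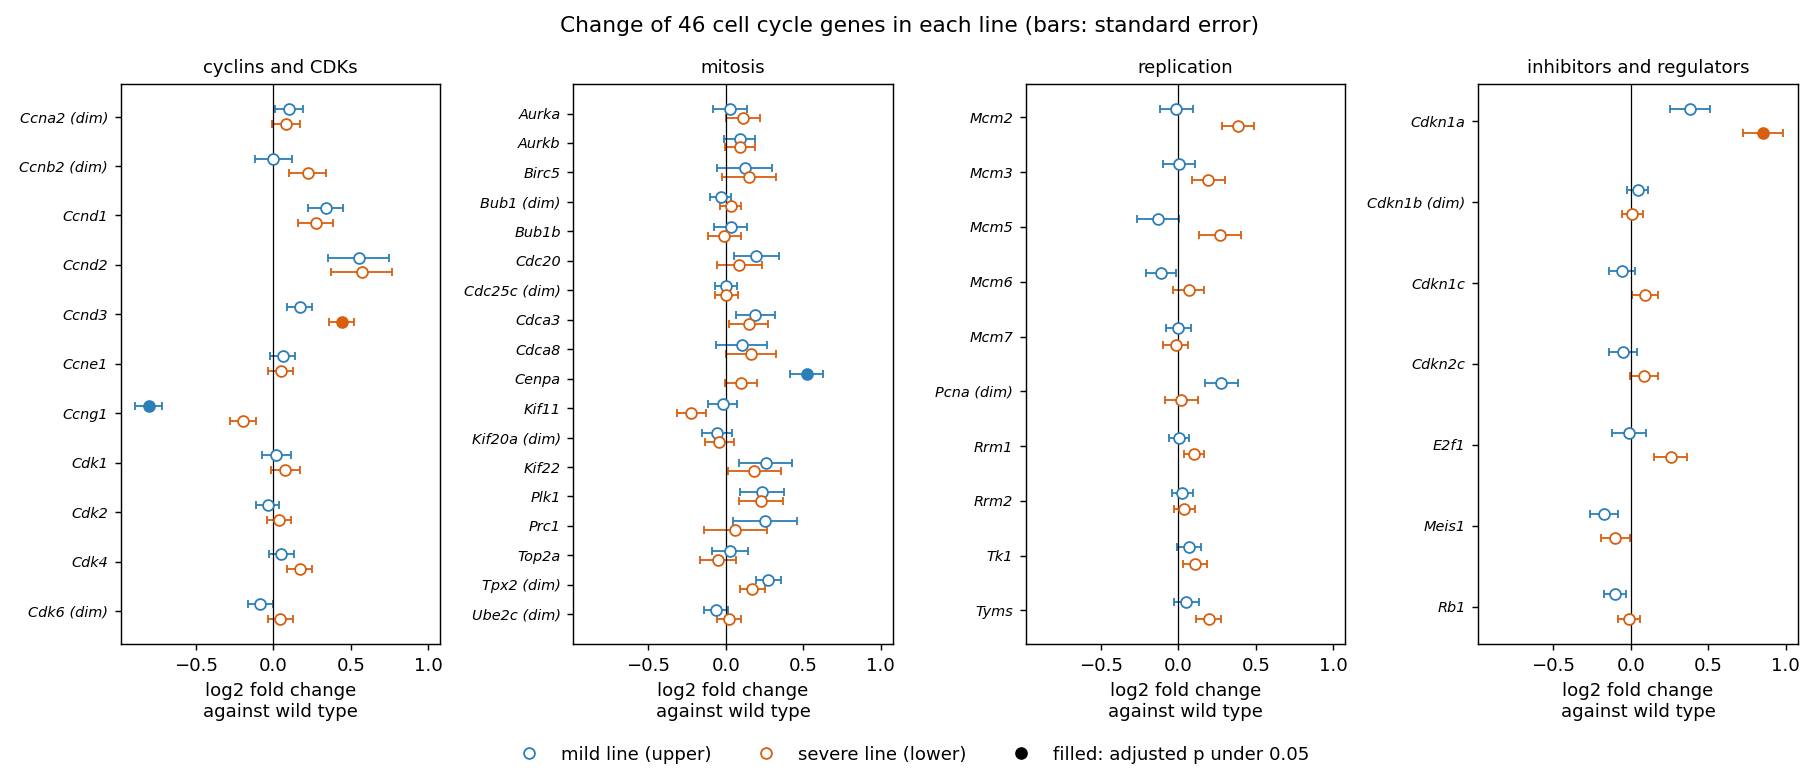
Log2 fold change against wild type (x axis) of 46 cell cycle genes (y axis), by group, in mild hearts (upper point) and the severe line (lower point), with bars of 1 standard error. Filled points passed an adjusted p of 0.05, and "dim" marks the 10 genes not above background. Ccng1 stands out to the left in mild hearts at -0.81 and Cdkn1a to the right in severe hearts at 0.86.

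Of the 36 genes above background, 30 had a 95% interval of the change inside 1.5-fold either way in mild hearts, and 32 did in severe hearts. Intervals of the 10 dim genes are not counted, since signal near background compresses a change. The 6 exceptions in mild hearts were Ccnd2, Ccng1, Cenpa, Kif22, Prc1 and Cdkn1a. The 4 in severe hearts were Ccnd2, Ccnd3, Mcm2 and Cdkn1a. By point estimate alone, 24 of these 36 genes were above wild type in mild hearts and 29 of 36 in severe hearts. The median log2 fold change of all features was 0.00 in both lines. Against own littermates the sign turned for 9 of the 36 genes in mild hearts and for 4 in severe hearts. Genes that vary together across arrays, as the mitosis genes did, are not independent, so these counts were not tested.

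Among the 11 cyclins and CDKs, 8 of them above background, 1 passed the test in each line. The median log2 fold change was 0.05 in mild hearts and 0.08 in severe hearts, against medians of 0.00 for all features in both. Ccng1 encodes cyclin G1, which p53 switches on and which acts in the p53 response more than as a motor of the cycle. Its log2 signal was 10.97, 11.04 and 11.18 in mild hearts, 11.65, 11.77 and 11.60 in severe hearts, and 11.72 at the lowest, 11.82 at the median and 12.11 at the highest in wild type hearts. All 3 mild arrays lay below every other array, and the severe line overlapped wild type.

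Ccng1 fell to 0.572 of the wild type level in mild hearts (log2 fold change -0.81, SE 0.08, adjusted p = 7.43e-06, limma, with 3 mild and 6 wild type arrays). In severe hearts the log2 fold change was -0.20 (SE 0.08, adjusted p = 0.294, limma). Mild and severe lines differed directly, by -0.61 (SE 0.10, adjusted p = 0.00243, limma), which made Ccng1 the only called member of 49 in that comparison, where 1.37% of all features were called. With median scaling in place of quantile normalization that difference was -0.50 (adjusted p = 0.0562, with 0.000592 to 0.0562 over the alternatives). Against their own littermates the lines' changes were -0.74 in mild hearts and -0.26 in severe hearts. The difference between those changes was -0.48 (SE 0.13, adjusted p = 0.259, limma) and did not pass the test.

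The 3 D cyclins bind CDK4 and CDK6 and relay growth signals to the cycle. Ccnd3 had log2 signals of 8.63, 8.85 and 8.74 in mild hearts, 9.05, 8.96 and 9.01 in severe hearts, and from 8.36 through a median of 8.57 to 8.77 in wild type hearts. The severe arrays were all above the wild type arrays, and mild arrays overlapped them. Ccnd3 rose 1.36-fold in severe hearts (log2 fold change 0.44, SE 0.08, n = 3 and 6, adjusted p = 0.00296, limma) and still did against that line's own littermates (0.37, adjusted p = 0.0296, within 0.000951 to 0.0378 over the alternatives). In mild hearts the value was 0.17 (SE 0.08, adjusted p = 0.393, limma), and the difference, mild minus severe, was -0.27 (adjusted p = 0.192, limma).

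Ccnd2 had the largest positive point estimate of the D cyclins in both lines without passing the test. Its signal was 8.54, 8.44 and 8.59 in mild hearts, 8.81, 7.86 and 8.96 in severe hearts, and 7.48, 7.96 and 8.43 at the lowest, median and highest wild type array. The mild arrays all lay just above the wild type arrays. Severe replicate 2 lay among the wild type arrays, while the other severe arrays were the highest of all. The log2 fold changes were 0.55 in mild hearts (SE 0.20, 95% interval 0.14 to 0.97, adjusted p = 0.182, limma) and 0.57 in severe hearts (SE 0.20, interval 0.16 to 0.99, adjusted p = 0.151, limma). Without severe replicate 2 they were 0.55 (adjusted p = 0.0371) and 0.92 (adjusted p = 0.00357), and both passed, with ranges over the alternatives of 0.0371 to 0.427 and 0.00357 to 0.527. The mild estimate was the same there, and its p depends on the severe arrays too, since the fit shares 1 spread over all groups.

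The other members of the group showed smaller estimates. Ccnd1, the third D cyclin, had log2 fold changes of 0.34 in mild hearts (adjusted p = 0.151, limma) and 0.27 in severe hearts (adjusted p = 0.278), and against own littermates 0.44 (adjusted p = 0.0841) and 0.17. Cdk4, a partner kinase of the D cyclins, had 0.05 and 0.17. Those of Cdk1, the kinase that starts mitosis, were 0.02 in mild hearts and 0.08 in severe hearts, and those of Cdk2, the kinase of S phase, were -0.04 and 0.04. Ccne1, which activates CDK2, had 0.06 and 0.05. Ccna2, Ccnb2 and Cdk6 were not above background.

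**Figure D2:**
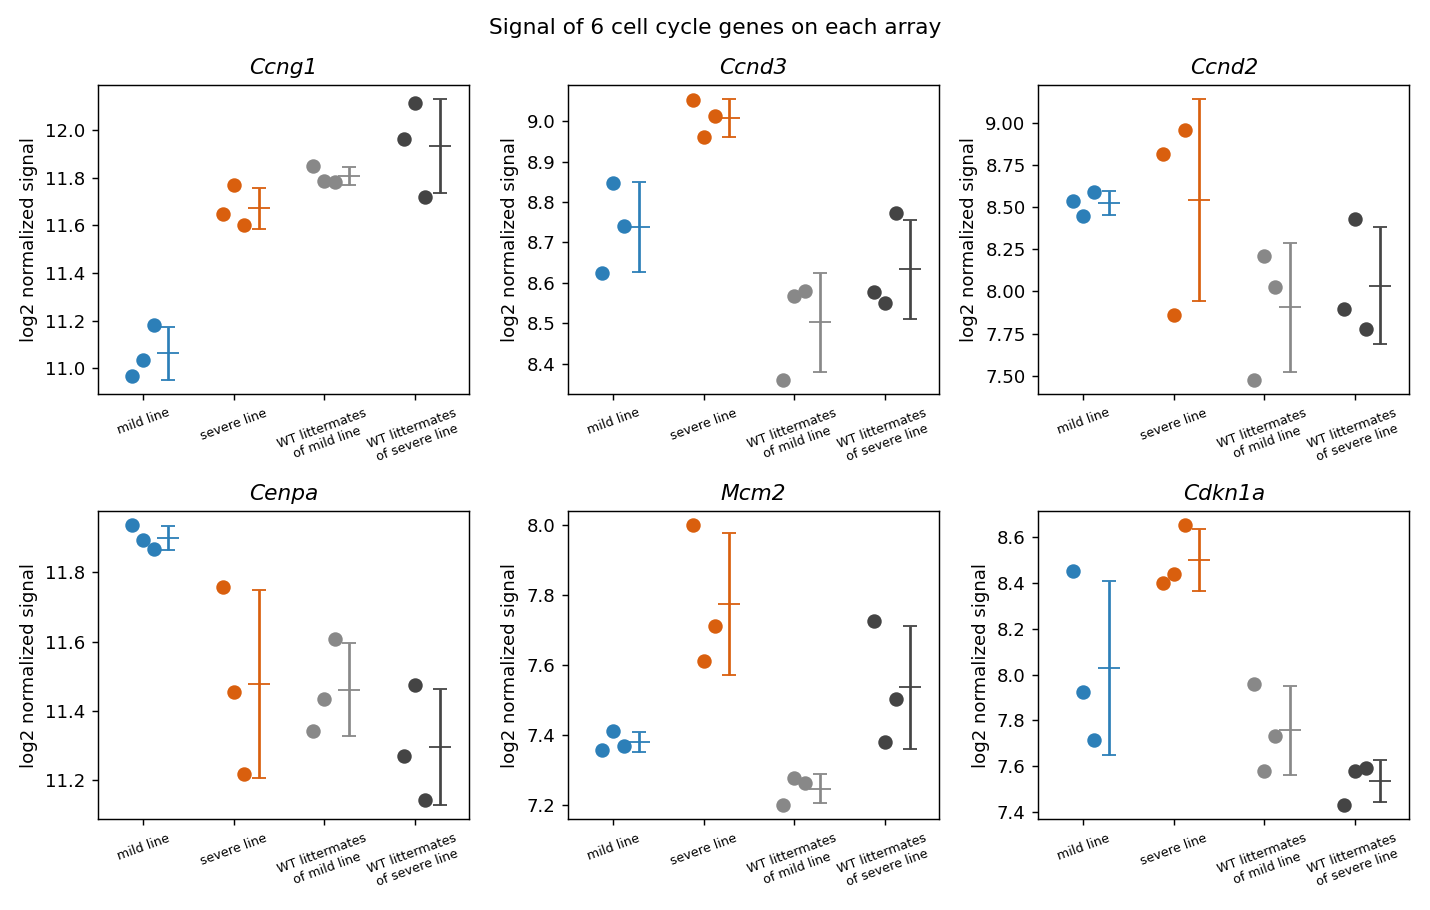
Log2 normalized signal (y axis) of 6 cell cycle genes on each of 12 arrays, by group, with the mean and SD of 3 arrays beside the points. Ccng1 is lowest in mild hearts, Cenpa highest in mild hearts, and Ccnd3 and Cdkn1a are above all wild type arrays in severe hearts. The axes do not start at 0.

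Of 18 mitosis genes, 13 were above background, and 1, Cenpa, passed the test in mild hearts and 0 in severe hearts. Against the pooled wild type hearts the median log2 fold change was 0.10 in mild hearts and 0.09 in severe hearts, and 14 of 18 point estimates were positive in each. The likeness of these medians depends on the pooling. Against own littermates, Birc5, Cdc20, Cdca3, Cdca8, Kif22, Plk1 and Prc1 moved by 0.1 or more, down in mild hearts and up in severe hearts. The other mitosis genes above background moved by less. At an unadjusted p under 0.05 there were 2 of 18 genes in each line, where 12.3% of all features were in mild hearts and 13.5% in severe hearts. Cenpa encodes the histone variant that marks centromeres. Its brightest feature read 11.94, 11.89 and 11.87 in mild hearts, 11.76, 11.45 and 11.22 in severe hearts, and from 11.14 through a median of 11.39 to 11.61 in wild type hearts. All mild arrays lay above all other arrays.

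Cenpa rose 1.44-fold in mild hearts (log2 fold change 0.52, SE 0.10, n = 3 and 6, adjusted p = 0.006, limma). Its second feature, much closer to background at a mean of 6.60, gave 0.22 (SE 0.08, adjusted p = 0.203) and also lay above all wild type arrays on all 3 mild arrays. Against the mild line's own littermates the brightest feature gave 0.44 and no longer passed (adjusted p = 0.0616, range over the alternatives 0.00186 to 0.0616). In severe hearts the value was 0.10 (SE 0.10, adjusted p = 0.777), and the difference, mild minus severe, was 0.42 (SE 0.12, adjusted p = 0.105, limma).

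The remaining mitosis genes had no call in either line. Kif22, a kinesin that moves chromosomes along the spindle, read 7.55, 8.12 and 7.73 in mild hearts, 8.12, 7.82 and 7.23 in severe hearts, and 7.05, 7.61 and 7.77 at the lowest, median and highest wild type array. Plk1, a kinase that drives entry into mitosis, read 6.95, 7.63 and 7.24 in mild hearts, 7.63, 7.24 and 6.94 in severe hearts, and 6.76, 7.10 and 7.19 in wild type hearts. In both genes mild replicate 2 and severe replicate 1 were the highest arrays, and the groups overlapped. The log2 fold changes of Kif22 were 0.26 in mild hearts (SE 0.17, adjusted p = 0.628) and 0.18 in severe hearts (adjusted p = 0.734), and those of Plk1 were 0.23 (adjusted p = 0.581) and 0.23 (SE 0.14, adjusted p = 0.547, limma). Against own littermates Kif22 had 0.10 in mild hearts and 0.34 in severe hearts, and Plk1 had 0.13 and 0.33, with no call.

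Kif11, the kinesin that pushes spindle poles apart, had the lowest estimate of the group in severe hearts. It read 6.31, 6.59 and 6.44 in mild hearts, 6.46, 6.20 and 6.07 in severe hearts, and 6.24, 6.49 and 6.65 in wild type hearts, where the arrays again overlapped. The severe line's log2 fold change was -0.22 (SE 0.09, adjusted p = 0.281, limma) and the mild line's was -0.02. Prc1, a microtubule bundler of cytokinesis, had the widest intervals, from -0.18 to 0.68 in mild hearts and from -0.37 to 0.50 in severe hearts, around 0.25 and 0.06. Against own littermates Prc1 had 0.06 in mild hearts and 0.26 in severe hearts. Aurka and Aurkb, the Aurora kinases, Bub1b of the spindle checkpoint, and Top2a, which untangles DNA, lay between -0.05 and 0.11 in both lines. Cdc20 of the anaphase promoting complex and Birc5, or survivin, had 0.20 and 0.12 in mild hearts and 0.09 and 0.15 in severe hearts, and against own littermates 0.07 and 0.00 in mild hearts and 0.21 and 0.27 in severe hearts. Tpx2, a spindle assembly factor, lay above all wild type arrays in mild hearts (0.27, adjusted p = 0.079, limma). Its mean was 6.40 in mild hearts, and its mean over 12 arrays was below background.

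Single arrays differed widely in the mitosis genes, in a shared order. Over 12 arrays the 13 genes above background had a median range of 0.76 on the log2 scale, against 0.45 for all 13574 features above background, and 9 of 13 varied over 1.5-fold. The range over the 6 wild type arrays alone had a median of 0.47, against 0.33 for all such features. Mild replicate 2 was among the 3 highest arrays for 12 of 13 genes and severe replicate 1 for 9. Severe replicate 3 and replicate 2 of the severe line's littermates were each among the 3 lowest for 11 of 13.

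The mean deviation of the 13 genes from their mean over 12 arrays was -0.15, 0.31 and 0.14 in mild hearts, 0.31, 0.03 and -0.27 in severe hearts, -0.14, 0.11 and 0.11 in the littermates of the mild line, and -0.16, -0.31 and 0.03 in those of the severe line. With quantile normalization the 3 highest arrays were thus transgenic, of both lines, and no wild type array exceeded 0.11. Low arrays occurred in both lines and in wild type hearts. Without Cenpa, which was highest on mild replicate 1, that array's mean deviation was -0.20 over 12 genes. With median scaling the highest array was mild replicate 2 and the lowest severe replicate 3. Replicate 2 of the mild line's littermates was then at 0.16, above mild replicate 3 at 0.15, so the 3 highest arrays were not all transgenic. A promoter window was given for 12 of the 13 genes, and 11 of these 12 hold the CHR letters shown above. Mitotic genes are known for these letters, and a link to the order of arrays was not tested.

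Markers of other cells were set beside this order. Of 3 measured erythroid markers, Alas2 and Slc4a1 were above background and Epb42 was not. Their mean deviation was 0.80, 0.14 and -0.28 in mild hearts, 0.26, -0.08 and 0.97 in severe hearts, 0.27, -1.44 and -1.0 in littermates of the mild line, and 0.16, -0.08 and 0.30 in littermates of the severe line. The arrays lowest in mitosis genes were thus high (severe replicate 3) or near the mean (replicate 2 of the severe line's littermates) in these markers. All 4 measured macrophage markers (C1qa, Lyz2, Adgre1 and Csf1r) were above background. Their mean deviation was 0.07, 0.13 and 0.15 in mild hearts, 0.08, 0.10 and -0.21 in severe hearts, -0.03, 0.04 and 0.07 in littermates of the mild line, and -0.11, -0.23 and -0.07 in littermates of the severe line. Both arrays lowest in mitosis genes were therefore the lowest in macrophage markers too, and both arrays highest in mitosis genes were above 0 in them. Endothelial markers, 4 of 5 above background, lay between -0.14 and 0.31 and were highest on replicate 1 of the severe line's littermates. All 5 fibroblast markers were above background, with mean deviations from -0.08 to 0.19 in mild hearts, from 0.12 to 0.18 in severe hearts and from -0.18 to -0.06 in wild type hearts. Smooth muscle markers, 2 of 3 above background, ran from -0.04 to 0.04 in mild hearts, from 0.05 to 0.38 in severe hearts and from -0.22 to 0.05 in wild type hearts. Col1a1, a collagen of fibroblasts, rose by 0.48 (adjusted p = 0.0114) and Tagln of smooth muscle by 0.70 (adjusted p = 6.28e-05) in severe hearts (limma). The part of these cells in the values of the cell cycle genes was not tested.

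**Figure D3:**
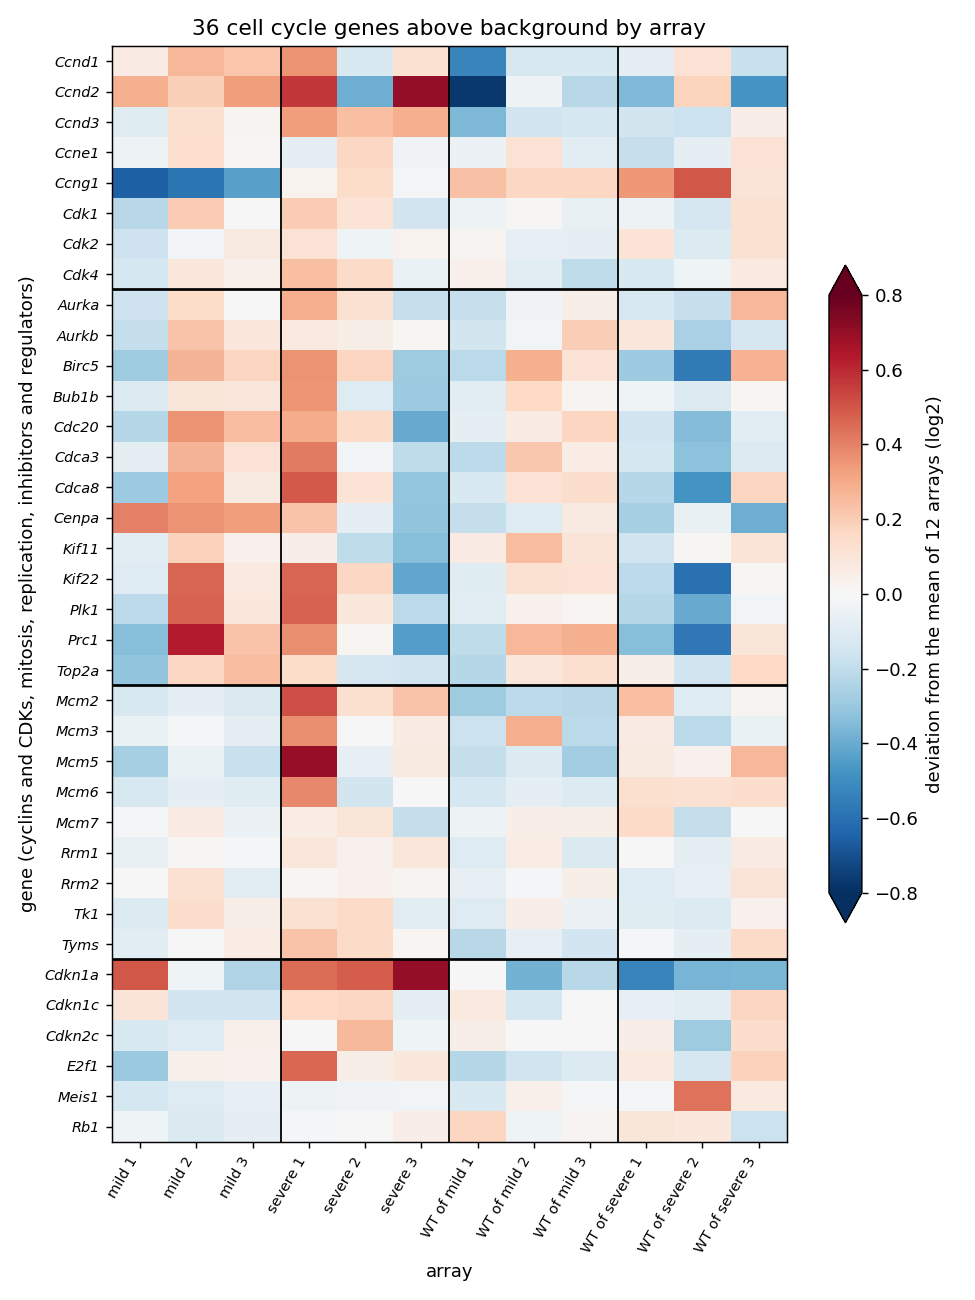
Deviation of each of 36 cell cycle genes above background (rows, in 4 groups) from its mean over 12 arrays (columns), on the log2 scale, where "WT of mild" and "WT of severe" are the wild type littermates of each line. The mitosis genes are mostly high on mild replicate 2 and severe replicate 1 and mostly low on severe replicate 3 and replicate 2 of the severe line's littermates.

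**Figure D4:**
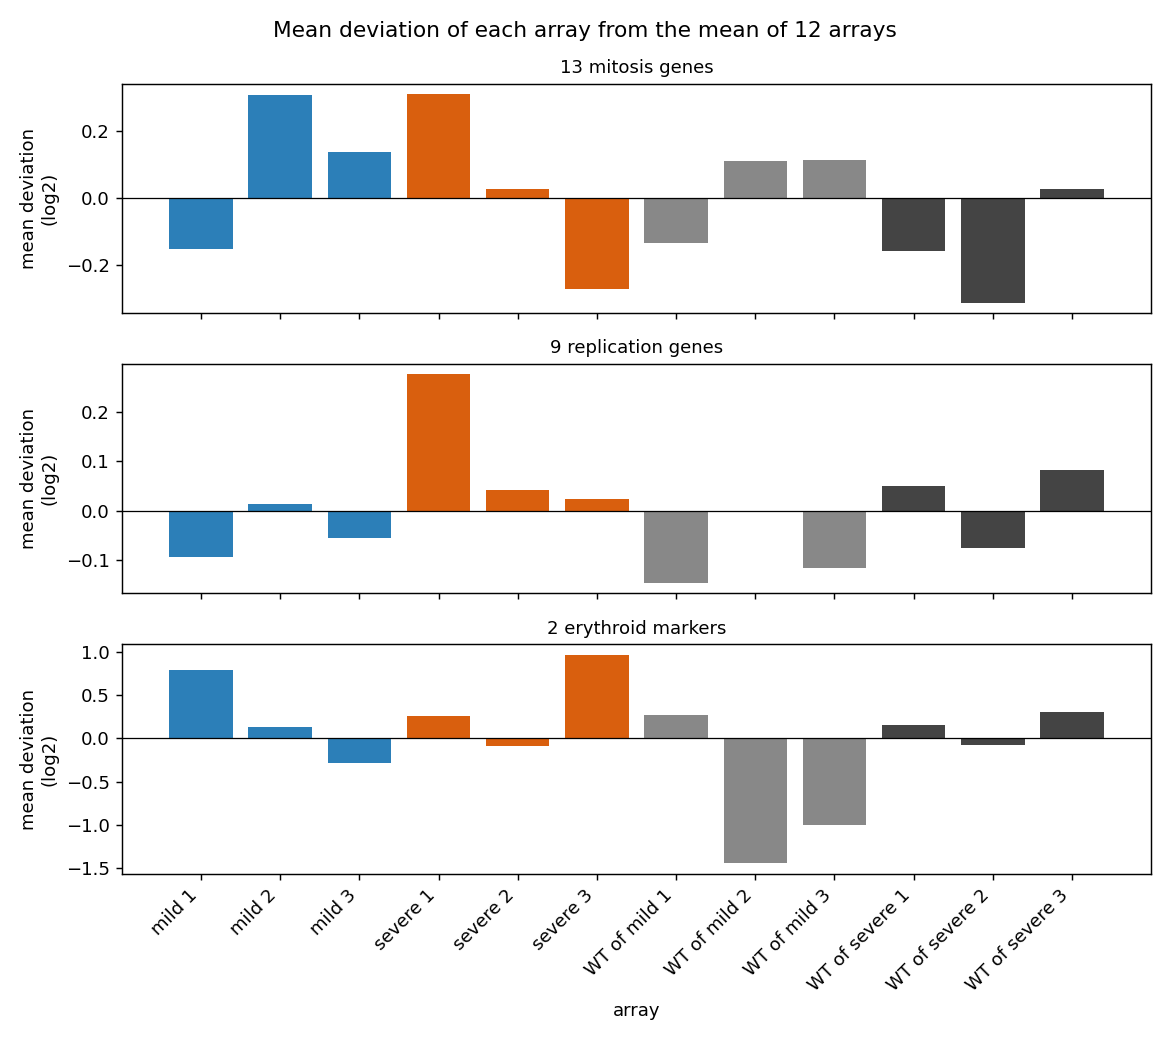
Mean deviation (y axis, log2) of the 13 mitosis genes, the 9 replication genes and the 2 erythroid markers above background on each array (x axis), in colors by group. The bars of the mitosis genes run from -0.31 to 0.31 and point both ways within both transgenic lines and in wild type hearts.

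Of 10 replication genes, 9 of them above background, 0 passed the test in either line. The median log2 fold change was 0.01 in mild hearts and 0.10 in severe hearts, with 6 of 10 point estimates positive in mild hearts and 9 of 10 in severe hearts. At an unadjusted p under 0.05 there were 1 of 10 genes in mild hearts and 2 of 10 in severe hearts, where 12.3% and 13.5% of all features were. The MCM proteins form the helicase that opens DNA at replication origins. Mcm2 came closest to a call: it read 7.36, 7.41 and 7.37 in mild hearts, 8.0, 7.61 and 7.71 in severe hearts, and 7.20, 7.33 and 7.73 at the lowest, median and highest wild type array. Severe replicate 1 was the highest array, and the lines each overlapped wild type.

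The severe line's log2 fold change of Mcm2 was 0.38 (SE 0.10, 95% interval 0.16 to 0.60, adjusted p = 0.0516, limma), and 6 of 24 alternatives brought it past the threshold (adjusted p from 0.00714 to 0.35). Against the severe line's own littermates it was 0.24 (adjusted p = 0.319). In mild hearts it was -0.01 (SE 0.10, adjusted p = 0.983), or 0.13 against own littermates, and the difference, mild minus severe, was -0.40 (adjusted p = 0.13, limma).

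Mcm5 read 8.58, 8.79 and 8.67 in mild hearts, 9.54, 8.78 and 8.91 in severe hearts, and 8.56, 8.81 and 9.11 in wild type hearts. Mcm6 read 6.84, 6.89 and 6.86 in mild hearts, 7.35, 6.82 and 6.96 in severe hearts, and 6.82, 6.99 and 7.11 in wild type hearts. In both, severe replicate 1 alone stood above the wild type arrays. The log2 fold changes of Mcm5 were -0.13 in mild hearts (SE 0.14, adjusted p = 0.804) and 0.27 in severe hearts (SE 0.14, adjusted p = 0.413), and those of Mcm6 were -0.11 (adjusted p = 0.756) and 0.07 (adjusted p = 0.856, limma). Without severe replicate 1 the severe line's value for Mcm5 was 0.04, the lowest over the alternatives. Against the mild line's own littermates, Mcm5 and Mcm6 gave 0.03 and 0.01 in that line, so the sign turned. Against the severe line's own littermates they gave 0.11 and -0.05 in severe hearts.

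Severe replicate 1 was the highest array for 5 of 9 replication genes above background, with a mean deviation of 0.28, where the other severe arrays had 0.04 and 0.02. Over 12 arrays, enzymes of nucleotide supply had log2 ranges of 0.21 (Rrm1), 0.23 (Rrm2), 0.26 (Tk1) and 0.45 (Tyms). The MCM genes had ranges from 0.35 (Mcm7) to 0.98 (Mcm5). Those enzymes had mean signals from 6.37 (Rrm2) to 7.04 (Rrm1), and dim signal compresses a range. The subunits of ribonucleotide reductase, Rrm1 and Rrm2, had log2 fold changes of 0.01 and 0.03 in mild hearts and 0.10 and 0.04 in severe hearts. Tk1, thymidine kinase, had 0.07 and 0.11, and Tyms, thymidylate synthase, 0.05 and 0.19 (adjusted p = 0.262 in severe hearts, limma). Mcm7 was at 0.00 in mild hearts and -0.02 in severe hearts, with intervals inside 1.5-fold. Pcna, the sliding clamp, was not above background by its mean over 12 arrays. It had a mean of 6.44 in mild hearts, and log2 fold changes of 0.28 in mild hearts (adjusted p = 0.24, limma) and 0.02 in severe hearts.

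Of 7 inhibitors and regulators, 6 of them above background, 0 passed the test in mild hearts and 1, Cdkn1a, did in severe hearts. The median log2 fold change was -0.05 in mild hearts and 0.08 in severe hearts. Cdkn1a encodes p21, a p53 target that binds and blocks CDKs. It read 8.45, 7.92 and 7.71 in mild hearts, 8.40, 8.44 and 8.66 in severe hearts, and 7.43, 7.59 and 7.96 at the lowest, median and highest wild type array. All severe arrays lay above all wild type arrays. Mild replicate 1 was as high as the severe line, and the other mild arrays overlapped wild type.

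Cdkn1a rose 1.81-fold in severe hearts (log2 fold change 0.86, SE 0.13, n = 3 and 6, adjusted p = 0.000557, limma) and by 0.97 against that line's own littermates (adjusted p = 0.000862, within 6.31e-05 to 0.00927 over the alternatives). In mild hearts the value was 0.38 (SE 0.13, 95% interval 0.11 to 0.66, adjusted p = 0.149, limma), and the difference, mild minus severe, was -0.47 (SE 0.15, adjusted p = 0.156). The changes against own littermates were 0.27 in mild hearts and 0.97 in severe hearts, which differed by -0.69 (SE 0.20, adjusted p = 0.309, limma). Without mild replicate 1 the mild line's value was 0.17, the lowest over the alternatives, and Cdkn1a was then called between the lines. Without mild replicate 3 it was 0.54 and passed the test (adjusted p = 0.042, limma).

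Meis1, a homeobox factor known in the mouse for arresting the cycle of heart muscle cells after birth, read 7.93, 7.96 and 8.01 in mild hearts, 8.03, 8.04 and 8.05 in severe hearts, and 7.95, 8.09 and 8.51 in wild type hearts. Its log2 fold changes were -0.17 in mild hearts (SE 0.09, adjusted p = 0.491) and -0.10 in severe hearts (adjusted p = 0.729, limma), with overlap in both. Against own littermates they were -0.07 in mild hearts and -0.20 in severe hearts. E2f1, the activator freed by the retinoblastoma protein, read 7.19, 7.53 and 7.52 in mild hearts, 7.94, 7.53 and 7.57 in severe hearts, and 7.26, 7.37 and 7.67 in wild type hearts. Its values were -0.01 in mild hearts (adjusted p = 0.983) and 0.26 in severe hearts (SE 0.11, adjusted p = 0.277, limma), with severe replicate 1 again highest. Against own littermates E2f1 had 0.09 in mild hearts, where the sign turned, and 0.15 in severe hearts. Rb1, the retinoblastoma protein itself, had -0.10 and -0.01, Cdkn1c, or p57, had -0.06 and 0.09, and Cdkn2c, or p18, had -0.05 and 0.08. The second feature of Cdkn2c, above background at a mean of 6.99, gave 0.02 in mild hearts and 0.20 in severe hearts (adjusted p = 0.416, limma). Cdkn1b, or p27, was not above background.

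When wild type littermates of either line were set against each other, the mild line's over the severe line's, 0 of 49 features were called, where 0.0875% of all were, and 4 had an unadjusted p under 0.05, where 9.97% of all did (limma). In the difference between the lines' changes against own littermates, 0 of 49 were called, where 0.266% of all were, and 2 had an unadjusted p under 0.05, where 7.31% did. Ranges of the arrays were compared as well. In mild hearts, 4 of 49 features lay above all wild type arrays (Ccnd2, both of Cenpa, and Tpx2) and 1 below (Ccng1), where 3.6% and 3.92% of all features did. The share above was larger than that of all features, with Cenpa counted by both its features and Tpx2 not above background. In severe hearts 2 lay above (Ccnd3 and Cdkn1a) and 0 below, where 3.59% and 3.63% did.

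Cell cycle genes outside the 48 had few calls as well, beside the 3.55% and 3.3% of all features called in mild and severe hearts and the 12.3% and 13.5% at an unadjusted p under 0.05. Of 27 other cyclins and CDKs, 0 were called in either line, and at an unadjusted p under 0.05 there were 1 in mild hearts and 0 in severe hearts (limma). Of 25 other inhibitors, E2F and DREAM genes, 0 were called, with 1 and 3 at that level. Of 60 other mitosis genes, 1 was called in mild hearts and 2 in severe hearts, and of 43 other replication genes, 1 and 0. Their median log2 fold changes were 0.03 for mitosis and -0.05 for replication in mild hearts, and 0.02 and 0.05 in severe hearts.

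Kif23, a kinesin of the central spindle that is needed for cytokinesis, had the largest change of the other mitosis genes. It read 10.81, 11.03 and 11.12 in mild hearts, 10.99, 10.71 and 11.04 in severe hearts, and 9.89, 10.32 and 10.47 at the lowest, median and highest wild type array. Both lines lay above all wild type arrays. Kif23 rose in mild hearts (log2 fold change 0.75, SE 0.11, n = 3 and 6, adjusted p = 0.000365) and in severe hearts (0.67, SE 0.11, adjusted p = 0.00147, limma), and against own littermates by 0.75 and 0.67 (adjusted p = 0.0029 and 0.00871). Sgo2a, which protects cohesion at centromeres, fell in severe hearts (-0.35, adjusted p = 0.0249) and had -0.29 in mild hearts (adjusted p = 0.061). Against own littermates Sgo2a had -0.35 in mild hearts and -0.29 in severe hearts and passed in neither. Ung, which removes uracil from DNA, fell in mild hearts (-0.44, adjusted p = 0.00169) and had -0.23 in severe hearts (adjusted p = 0.129, limma).

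Since Ccng1 and Cdkn1a are both known p53 targets, 22 further genes listed as targets were read. Whether p53 acts on each of them in these hearts was not tested. In mild hearts 2 of 22 were called (9.09%, against 3.55% of all features), Gadd45g higher and Gadd45a lower. In severe hearts 2 of 22 were called (9.09%, against 3.3% of all), Gadd45g and Phlda3, both higher. Gadd45g, a stress-induced growth arrest gene, rose by 0.57 in mild hearts (adjusted p = 0.00063) and 0.79 in severe hearts (adjusted p = 3.58e-05, limma). Gadd45a, its relative, read 8.09, 8.04 and 8.05 in mild hearts, 8.75, 8.80 and 8.49 in severe hearts, and 8.36, 8.68 and 8.86 in wild type hearts. It fell by 0.58 in mild hearts (adjusted p = 0.00237), with 0.04 in severe hearts (adjusted p = 0.938), and the difference, mild minus severe, was -0.62 (adjusted p = 0.0133, limma). Phlda3, an inhibitor of AKT, had 0.59 in severe hearts (adjusted p = 0.000171) and 0.29 in mild hearts (adjusted p = 0.0566), where own littermates gave 0.38 (adjusted p = 0.0188). Mdm2, which degrades p53, had -0.21 in mild hearts (adjusted p = 0.249) and 0.14 in severe hearts (adjusted p = 0.507). The median over the 22 was 0.01 in mild hearts and 0.06 in severe hearts.

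Of 22 regulators known for the growth and division of heart muscle cells, 1 was called in mild hearts (4.55%, against 3.55% of all features) and 2 in severe hearts (9.09%, against 3.3%). Igf1r, the receptor of insulin-like growth factor, read 7.92, 7.86 and 8.10 in mild hearts, 8.19, 7.79 and 8.11 in severe hearts, and 7.44, 7.59 and 7.61 in wild type hearts, with no overlap. It rose by 0.40 in mild hearts (SE 0.08, adjusted p = 0.00923) and 0.47 in severe hearts (SE 0.08, adjusted p = 0.003, limma). Fstl1, a secreted glycoprotein, rose by 0.43 in severe hearts (adjusted p = 0.0181) and had 0.33 in mild hearts (adjusted p = 0.0819, limma). Against the severe line's own littermates Fstl1 had 0.35 (adjusted p = 0.128).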

How the data were processed

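Per the labels and methods, RNA was hybridized to MouseWG-6 v2.0 arrays and read out in GenomeStudio (version not given in the sources used here). The authors deposited 1 intensity for each probe and array, unnormalized, together with a table of log2 values that they had background corrected and quantile normalized. From the intensities, background was corrected in R 4.3.3 by normexp (offset 50) before quantile normalization and log2 transformation. Lines with an empty ID (6, in 3 arrays) were dropped. limma 3.58.1 fitted means of mild, severe and 6 wild type hearts (or of all 4 groups for littermates), with Benjamini-Hochberg adjustment over 30854 features and a call at an adjusted p under 0.05. The steps were tested on simulated data. Symbols came from the platform annotation (34885 IDs with 1, 18 with several, 10378 with none), and an update through Entrez IDs changed 0 of them. p-values set a change against the spread between hearts within groups. In the fit that spread is shared by all groups and moderated over all features by limma. The number of arrays limits the precision.

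Per-array values are given for called members and the 2 largest changes above background of each group in each line, and up to 4 called genes of each further list are named. Other members, and Mdm2, were named after their values were seen. Members and lists were chosen with earlier results of these data known. Alternatives covered background correction, offset, scaling, the authors' table, filters, weights, littermates, thresholds and single arrays.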

Additional observations from a re-analysis of the deposited data

Results flagged for a closer look

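Dixon's test was run on the 6 wild type values of each of 46 genes, and 2 were flagged, where chance flags about 1 in 20. Both lay on 1 array, that of littermate 2 of the severe line. Cdkn2c read 7.24 there, with the other wild type arrays between 7.52 and 7.67, and its gap to the nearest was 0.663 of the whole range. The second feature of Cdkn2c read 6.74 there, nearer to the other wild type arrays, which lay between 6.88 and 7.15. Only brightest features were tested. Meis1 read 8.51 there, with the others between 7.95 and 8.15, and a gap of 0.639. That array was also the lowest of all in the mean of the mitosis genes.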

How the results depend on the processing

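The count of called members was 2 in the mild line, 2 in the severe line, 1 between the lines and 0 in the other 2 comparisons. With own littermates the mild line's count was 1 (Ccng1), and with a replicate block and own littermates also 1, while Mcm5 and Mcm6 turned to 0.0283 and 0.00652 in the mild line under both. Same-numbered hearts deviated from their group means with correlations between -0.381 and 0.105, so the numbers were not taken as pairs. With the 2-fold limit the counts were 0 in the mild line, 0 in the severe line and 0 between the lines, and with median scaling 0 between the lines. Leaving out 1 array gave 2 to 4 in the mild line, 2 to 4 in the severe line, 1 to 2 between the lines, 0 to 1 in the difference of changes and 0 throughout between littermates. The counts of 4 came without severe line replicate 2 (adding Ccnd2 and Tpx2 in the mild line, Ccnd2 and Mcm2 in the severe line). The 2 between lines came without mild line replicate 1 (Cdkn1a) or severe line replicate 1 (Cenpa), and the 1 without mild line replicate 1 (Cdkn1a). Causes were not tested. Of the other 103 counts, 95 equalled the count given here and 8 were 3 in place of 2. Mcm2 was the addition in the severe line (signal filter, array weights, averaged features, or without severe line littermate 1 or 3), and Ccnd2 (2-group fit, adjusted p = 0.0488), Tpx2 (without mild line replicate 1) or Cdkn1a (without mild line replicate 3) in the mild line. Over the alternatives 384 single-gene values kept their side and direction. Dim signal limits the 10 genes not above background and those just above it.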
